A study of Mus musculus with 9 samples.

Results

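E2A binding was compared between CD73+ and CD73- thymocyte precursors, 2 populations sorted from the same kind of culture after delivery of a gamma-delta T cell receptor. The E2A lists of chromatin immunoprecipitation peaks hold 23205 peaks in CD73+ cells and 12434 peaks in CD73- cells on chromosomes 1 to 19, X and Y, together 35639 of the 79216 peaks in the 6 deposited lists. A peak was called shared where it overlapped a peak of the other population by at least 1 bp, and alone otherwise. Each peak was then assigned to the nearest protein-coding gene of the mouse genome build mm10.

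Per the labels, both populations came from BALB/c mouse fetal liver progenitors that lack Rag2 and so cannot rearrange their own receptor genes. The progenitors were grown to the DN3 stage, harvested at day 7, and transduced on virus-producing cells, in 5 ng/ml IL7 and 5 ng/ml Flt3L, with KN6, a gamma-delta T cell receptor marked by YFP. YFP+ DN3 cells were sorted and cultured for another 3 days over OP9-DL1 stroma, which displays the Notch ligand Delta-like 1, then fixed for 10 min in 1% formaldehyde. The CD73+ group was sorted as Thy1+ YFP+ CD4- CD8- CD24+ CD73+ and is described as committed to the gamma-delta fate. The CD73- group was sorted with the same markers but without CD73 and is described as still able to take the alpha-beta fate. DN3 cells without the receptor and the HEB lists of all 3 stages serve here only as further measurements. E2A was precipitated with rabbit polyclonal antibodies to its C-terminus, and every list was called against input chromatin. Duplicates were joined by the submitters, so each group has 1 list, no difference has a replicate error, and intervals cover counting error only. No transduced cells that carry a control vector in place of the receptor are among the groups, and no expression was measured, so the sorted identities could not be checked against marker genes.

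E2A is the product of Tcf3 and belongs, with HEB, to the E proteins, dimeric basic helix-loop-helix factors whose DNA site is the E-box, CANNTG. Id proteins such as Id2 and Id3 pair with E proteins and keep them off DNA. In thymocytes, signals from the T cell receptor raise the Egr factors, which turn on Id3, and strong signals favour the gamma-delta over the alpha-beta fate. CD73, an ectoenzyme encoded by Nt5e, marks cells that have received such a signal.

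The E-boxes can be seen in promoters that carried peaks. The 250 bases before the start site of 6 genes are shown here, 2 for each set, 5′ to 3′ on the strand of the gene, with 3 E-box forms in capitals: the palindrome CAGCTG, and the form CACCTG with its reading on the opposite strand, which is CAGGTG. Sequences and positions are from RefSeq, build GRCm38.p6, the assembly of mm10, and the 6 genes were chosen after their peaks were seen. Arpp21, an RNA-binding phosphoprotein (minus strand, chr9:112217352-112217601), and Cd3g, a chain of the receptor complex (minus strand, chr9:44980432-44980681), had a shared peak. Ifng, the cytokine interferon gamma (plus strand, chr10:118440796-118441045), and Tbl1xr1, a corepressor subunit (plus strand, chr3:22076402-22076651), had a CD73+ peak alone. Neil1, a DNA repair glycosylase (minus strand, chr9:57148306-57148555), and Lat, the adaptor through which the receptor signals (minus strand, chr7:126369569-126369818), had a CD73- peak alone.
Arpp21: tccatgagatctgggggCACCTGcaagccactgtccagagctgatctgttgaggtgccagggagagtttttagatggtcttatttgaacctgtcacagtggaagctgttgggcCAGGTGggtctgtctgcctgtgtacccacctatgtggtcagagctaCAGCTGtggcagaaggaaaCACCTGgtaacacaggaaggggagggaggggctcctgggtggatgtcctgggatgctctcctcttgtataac
Cd3g: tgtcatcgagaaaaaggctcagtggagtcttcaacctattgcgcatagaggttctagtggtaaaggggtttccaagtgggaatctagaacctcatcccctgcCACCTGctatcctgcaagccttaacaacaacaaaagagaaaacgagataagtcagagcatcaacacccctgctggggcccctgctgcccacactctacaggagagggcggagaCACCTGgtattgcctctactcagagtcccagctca
Ifng: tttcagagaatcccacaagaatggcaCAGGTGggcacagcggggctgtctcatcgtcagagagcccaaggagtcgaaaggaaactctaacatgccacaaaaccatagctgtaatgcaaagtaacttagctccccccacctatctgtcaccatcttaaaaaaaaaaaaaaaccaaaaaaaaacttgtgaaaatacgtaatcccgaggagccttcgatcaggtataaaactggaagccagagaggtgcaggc
Tbl1xr1: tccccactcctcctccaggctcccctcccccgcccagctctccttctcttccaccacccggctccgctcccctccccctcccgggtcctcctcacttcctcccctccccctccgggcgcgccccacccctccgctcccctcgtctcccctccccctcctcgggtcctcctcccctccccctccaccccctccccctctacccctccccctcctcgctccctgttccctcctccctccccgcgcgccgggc
Neil1: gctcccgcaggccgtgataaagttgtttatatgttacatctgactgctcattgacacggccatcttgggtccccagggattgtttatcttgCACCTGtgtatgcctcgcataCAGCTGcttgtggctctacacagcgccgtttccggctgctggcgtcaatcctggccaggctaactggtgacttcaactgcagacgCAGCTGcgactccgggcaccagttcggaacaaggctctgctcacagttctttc
Lat: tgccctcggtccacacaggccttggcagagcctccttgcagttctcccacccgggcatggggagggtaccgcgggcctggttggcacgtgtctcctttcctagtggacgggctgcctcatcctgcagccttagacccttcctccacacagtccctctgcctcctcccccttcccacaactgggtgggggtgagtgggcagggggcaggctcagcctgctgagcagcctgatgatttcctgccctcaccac
The Arpp21 stretch holds 4 of these E-boxes, which begin 233, 137, 91 and 72 bp before the start, and the CD73+ and CD73- peaks cover 182 and 250 of its bases. The Cd3g stretch holds 2, the Ifng stretch 1 and the Neil1 stretch 3, while the Tbl1xr1 and Lat stretches hold none of these forms. The Lat stretch does hold 2 CANNTG sites of other forms, CACGTG and CAACTG. The CACGTG site lies outside the CD73- peak (chr7:126369401-126369647), and the CAACTG site lies inside it. Some marked E-boxes lie outside the peaks. That of Ifng, which begins 224 bp before the start, is outside its CD73+ peak (chr10:118440830-118440979). The Cd3g E-box at 148 bp before the start is outside both its peaks. The Arpp21 E-box at 233 bp is outside the CD73+ peak. A DN3 E2A peak also overlapped each of the 6 stretches, with scores that ran from 73.2 at Tbl1xr1 to 2029 at Arpp21. In this the Ifng and Tbl1xr1 stretches do not stand for their set, since 2.18% of all CD73+ alone peaks overlapped a DN3 E2A peak, and the CD73+ alone peak at the promoter of Khk, a fructose kinase, did not.

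Across windows of 250 bases before to 50 after a start, at least 1 of these 3 forms was present in 25 of 44 windows under shared peaks of the CD73+ list (56.8%, exact 95% interval 41.0 to 71.7%) and in 27 of 51 under CD73+ alone peaks (52.9%). The share was 27 of 50 under shared peaks of the CD73- list (54.0%) and 39 of 66 under CD73- alone peaks (59.1%). All 32851 windows of the table held it in 32.9%. The 3 forms cover both strands, and windows of 1 gene can overlap. The 4 exact 95% intervals all lie between 38.5 and 71.7% and overlap, so the sets could not be told apart by this count, which covers only the few peaks at start sites. CACGTG, another E-box form, was in 3 of the 44 shared and 5 of the 51 alone windows of CD73+ cells and in 4 of the 50 shared and 5 of the 66 alone windows of CD73- cells. It was in 7.15% of all windows. Chromosome 18 windows were not used here.

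Most E2A peaks belonged to a single population. Of the CD73+ peaks, 1972 overlapped a CD73- peak (8.50%, 8.14 to 8.86%). Of the CD73- peaks, 1919 overlapped a CD73+ peak (15.4%, 14.8 to 16.1%). Merging the 2 lists gave 33628 loci, of which 63.1% were CD73+ alone, 31.3% CD73- alone and 5.59% shared. Overlapping pairs of shared peaks had a median distance of 39 bp between their midpoints, which the overlap rule itself keeps small for narrow peaks. Of the alone peaks, 885 in CD73+ cells (4.17%) and 857 in CD73- cells (8.15%) lay within 500 bp of a peak of the other population. Counted as shared, they raise the shares to 12.3% of CD73+ and 22.3% of CD73- peaks.

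The score of a peak is the submitters' negative log10 of the p-value that MACS gave it against input, times 10. It starts at 50, rises with read depth, which the lists do not state, and is therefore read only within a list. Overlap followed the score in both lists. Among peaks that scored 50 to 60, 4.50% of the CD73+ and 8.47% of the CD73- peaks were shared. Among peaks of 200 to 500, 88.99% of the CD73+ and 76.6% of the CD73- peaks were shared, and from 500 upward 97.1% of the CD73+ and 93.7% of the CD73- peaks. Below a score of 100 lay 20262 of the 21233 CD73+ alone peaks and 10090 of the 10515 CD73- alone peaks. At a score of at least 100, the CD73+ list had 658 shared and 971 alone peaks and the CD73- list had 668 shared and 425 alone peaks. These are called strong below.

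**Figure D1:**
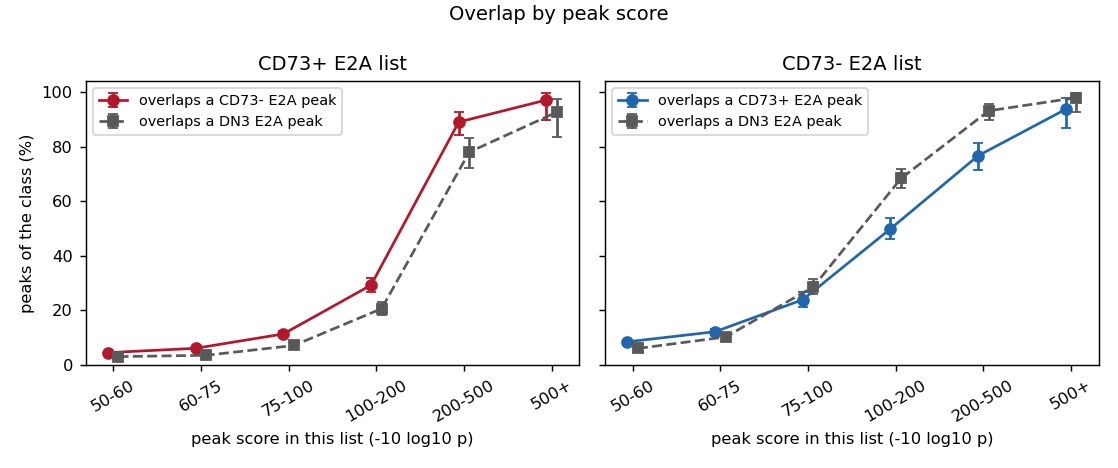
Share of E2A peaks (%, vertical axis) that overlap a peak of the other sorted population (coloured circles) or of DN3 cells (grey squares), by score class of the list itself (horizontal axis), for CD73+ (left) and CD73- cells (right), with exact 95% binomial intervals. From a score of 100 to 200, 29.2% of CD73+ peaks were shared and 20.6% overlapped a DN3 E2A peak, against 49.9% and 68.3% of CD73- peaks.

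The strong peaks of a single population differed most in what they shared with other lists. In CD73+ cells 46 of 971 strong alone peaks overlapped a DN3 E2A peak (4.74%, 3.49 to 6.27%), whereas in CD73- cells 284 of 425 did (66.8%, 62.1 to 71.3%). From a score of 200 upward the counts were 1 of 27 CD73+ alone peaks and 76 of 77 CD73- alone peaks. Strong shared peaks overlapped a DN3 E2A peak in 71.3% of the CD73+ and 84.7% of the CD73- list. The same split held for the HEB lists: 8.34% of the strong CD73+ alone and 63.3% of the strong CD73- alone peaks overlapped a DN3 HEB peak, and 8.55% of the CD73+ alone and 62.6% of the CD73- alone peaks a CD73- HEB peak. Any of the 4 other lists was met by 18.2% of the strong CD73+ alone and 79.3% of the strong CD73- alone peaks. From a score of 200 upward, any of them was met by 12 of 27 CD73+ alone peaks (44.4%) and 77 of 77 CD73- alone peaks. Over all scores the gap was smaller, 2.18% of CD73+ alone and 10.3% of CD73- alone peaks at a DN3 E2A peak. With the lists cut to equal length by score, these shares were 2.49% and 11.1%. The same score cut was set on both lists though their read depth is unknown. It need not mark the same class of peak in each, so the size of the gap among strong peaks depends on it. DN3 peaks were wide, with a median of 617 bp, against 175 bp in CD73+ and 155 bp in CD73- cells.

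The CD73+ HEB list bears on how far a missing CD73+ E2A peak reaches. Of the 425 strong CD73- alone E2A peaks, 260 overlapped a CD73+ HEB peak (61.2%, 56.4 to 65.8%), against 67 of the 971 strong CD73+ alone peaks (6.90%). The loci that lacked a CD73+ E2A peak thus often had a peak in the other list of the same cells. With the CD73+ list labelled HEB put in place of the one labelled E2A, 18.8% of CD73+ peaks and 15.5% of CD73- peaks were shared. The counts were 1921 of 10194 CD73+ and 1929 of 12434 CD73- peaks. With the list labelled E2A they were 1972 of 23205 and 1919 of 12434, so the higher CD73+ share goes with a shorter list and not with more shared peaks. Whether the labels of the 2 CD73+ lists are exchanged was not tested, and each statement on CD73+ E2A below rests on the label as deposited.

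**Figure D2:**
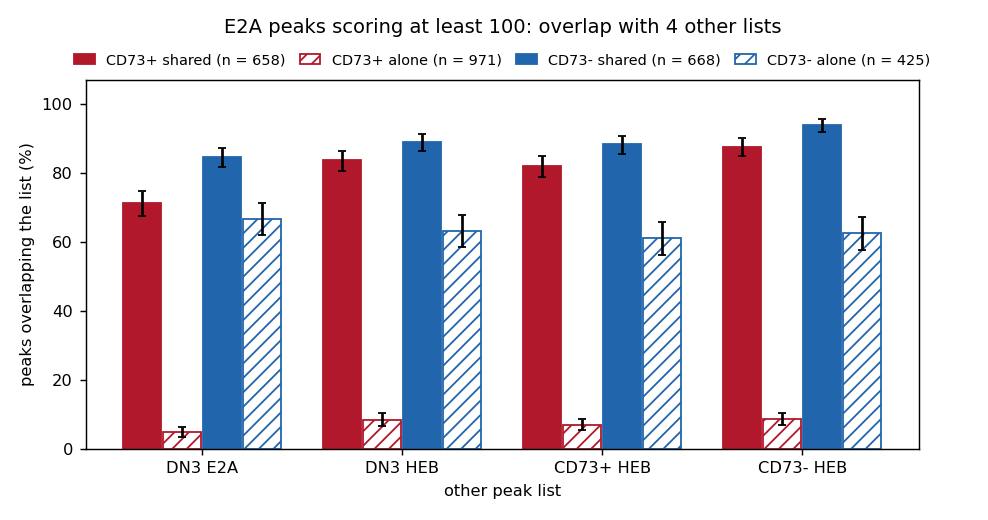
Share (%, vertical axis) of E2A peaks scoring at least 100 that overlap a peak of 4 other lists (horizontal axis), for CD73+ shared, CD73+ alone, CD73- shared and CD73- alone peaks; bars are shares and lines exact 95% binomial intervals. The CD73+ alone bars stay between 4.74% and 8.55%, and the CD73- alone bars between 61.2% and 66.8%.

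Strong alone peaks also differed in shape. In CD73+ cells they had a median width of 92 bp, and 516 of 971 (53.1%) were under 100 bp wide. In CD73- cells the median was 347 bp and 17 of 425 (4%) were under 100 bp. A score of exactly 129 was held by 206 of the strong CD73+ alone peaks, which were 68 to 128 bp wide, and 4 of these overlapped any of the 4 other lists. Leaving out peaks under 100 bp, 39 of 455 strong CD73+ alone peaks (8.57%) and 283 of 408 strong CD73- alone peaks (69.4%) overlapped a DN3 E2A peak, so the gap remained. Without peaks under 100 bp at any score, 22047 CD73+ and 11984 CD73- peaks remained, so the CD73+ list was still the longer. What gave rise to the narrow peaks was not tested.

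**Figure D3:**
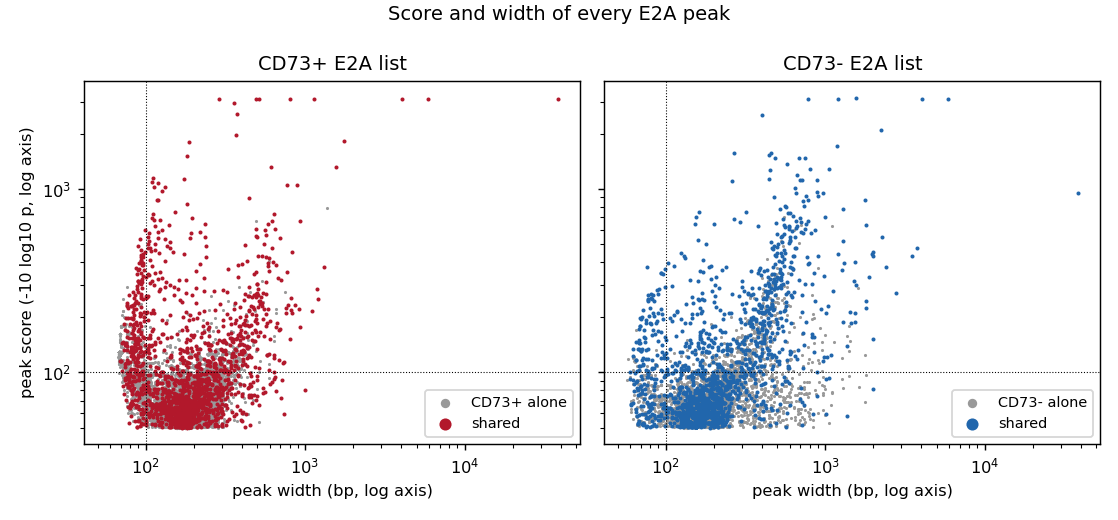
Score (vertical, log axis) against width in bp (horizontal, log axis) of every E2A peak on the 21 chromosomes, CD73+ left and CD73- right, with shared peaks in colour and alone peaks in grey; dotted lines mark a score of 100 and a width of 100 bp. Above the score line, grey points of CD73+ cells crowd at widths near 100 bp (median 92 bp), and those of CD73- cells lie on the arm of wider peaks (median 347 bp).

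Position relative to genes followed the same division. Strong CD73+ alone peaks lay inside a protein-coding gene in 39.4%, over 100 kb from any in 25.1%, and within 1 kb of a start site in 2.57% (1.65 to 3.80%). Strong CD73- alone peaks lay inside a gene in 48.0%, over 100 kb away in 12.2%, and within 1 kb of a start in 7.38% (5.07 to 10.3%). Over all scores, 0.958% of CD73+ alone and 1.85% of CD73- alone peaks were within 1 kb of a start, against 4.45% and 4.42% of shared peaks in the CD73+ and CD73- lists.

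The 10 highest shared peaks overlapped a peak in each of the 6 lists. A peak inside Ccnd3, which encodes cyclin D3, the G1 cyclin of proliferating thymocytes, scored 604 in CD73+ and 1486 in CD73- cells (chr17:47542165-47542656 in CD73+ cells). A second shared peak inside Ccnd3 scored 151 in CD73+ and 479 in CD73- cells. The others of the 10, ranked by the lower of the 2 within-list ranks, were nearest to Rpusd4, Ly6c2, Dyrk1a, B4galt1, Tmem260, Trim8, Chl1, Srp14 and Ppp6r3. Dyrk1a, a kinase that controls cell cycle exit in lymphocytes, had 1051 in CD73+ and 1713 in CD73- cells, 3074 bp outside its span. Ly6c2, a lymphocyte surface protein, had 1315 in CD73+ and 3156 in CD73- cells at 21104 bp. B4galt1, a galactosyltransferase, had 1053 in CD73+ and 1473 in CD73- cells at 21414 bp.

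The 10 highest CD73+ alone peaks were nearest to genes that none of the gene lists used here holds. The peak at Cartpt, a neuropeptide precursor, scored 785 and was 1377 bp wide (chr13:99901644-99903020), and no other list had a peak there. Ppargc1a, a coactivator of mitochondrial genes, had 670.3 in CD73+ cells, with a DN3 HEB peak of 294. Cdh12, a cadherin, had 406, and Abt1, an activator of basal transcription, had 317 at 3669 bp. Hibch, an enzyme of valine breakdown, Fhit, a nucleotide hydrolase, Atl1, a membrane GTPase, Fam174a and Ap1m2, an epithelial clathrin adaptor subunit, were also among the 10, at 292 down to 241. None of the 10 overlapped a DN3 E2A peak, but some overlapped a HEB peak. A DN3 HEB peak was met at Ppargc1a, Cdh12 (100), Abt1 (74.6) and Fam174a (62.35). A CD73+ HEB peak was met at Abt1 (77.45), Hibch (182) and Atl1 (96.3), and a CD73- HEB peak at Atl1 (60.2). The rest of the 10 met no other list.

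The 10 highest CD73- alone peaks were at other genes again, and each was also a peak of DN3 cells. Mcm2, a subunit of the replicative helicase, had a peak inside the gene that scored 489 in CD73- cells and 3087 in DN3 E2A (chr6:88886368-88886909). Psma6, a proteasome subunit, had 704, Naxd, which repairs damaged NADH, 635, and Srsf3, a splicing factor, 416 at 13329 bp. Tubb2b, Iftap, Fkbp5, Cracdl, Grasp and Dnah14 made up the 10, at 632 down to 369. All 10 overlapped a DN3 E2A peak, and all but Dnah14 a CD73+ HEB peak.

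Over 21887 protein-coding genes, 5184 had a CD73+ peak in their span or within 10 kb (23.7%) and 3852 a CD73- peak (17.6%). Both were present at 2139 genes (9.77%), a shared peak at 901 (4.12%), CD73+ alone at 3045 (13.9%) and CD73- alone at 1713 (7.83%). The order of the last 2 rests on the longer CD73+ list: with the lists cut to equal length by score, CD73+ alone genes numbered 2026 and CD73- alone genes 2159. A strong peak was near 876 genes in CD73+ cells (4%) and 669 genes in CD73- cells (3.06%). Length bears on these counts: genes with peaks in both populations had a median span of 75.6 kb, CD73+ alone genes 31.9 kb, CD73- alone genes 27.0 kb, and genes without a peak 12.8 kb.

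Genes with a strong peak in a single population divided in the same way. A strong CD73+ peak with no CD73- peak was near 323 genes (1.48%), and 105 of these had a DN3 E2A peak (32.5%, 27.4 to 37.9%), against 26.2% of all genes. A strong CD73- peak with no CD73+ peak was near 166 genes (0.758%), and 152 of these had a DN3 E2A peak (91.6%, 86.3 to 95.3%). A CD73+ HEB peak was near 138 of the 166 (83.1%, 76.6 to 88.5%), against 20.2% of all genes. A CD73- HEB peak was near 63 of the 323 (19.5%, 15.3 to 24.3%), a share near the 17.1% of all genes.

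At 250 genes in 12 lists of T cell, signalling, cell cycle and chromatin genes, 35 had peaks in both populations, 34 in CD73+ alone, 22 in CD73- alone and 159 in neither. Over all protein-coding genes the shares were 9.77% in both, 13.9% in CD73+ alone, 7.83% in CD73- alone and 68.5% in neither. The CD73+ alone and CD73- alone counts of the lists are near these shares. A DN3 E2A peak was near 19 of the 34 CD73+ alone and 19 of the 22 CD73- alone genes, and near 83 of the 159 genes without a peak in the sorted cells. A CD73+ HEB peak was near 18 of the 22 CD73- alone genes, and a CD73- HEB peak near 12 of the 34 CD73+ alone genes, beside 20.2% of all genes with a CD73+ HEB peak, 17.1% with a CD73- HEB peak and 26.2% with a DN3 E2A peak. The E2A shares that follow are to be read against the 23.7% and 17.6% of all genes.

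Among the receptor chains and their proximal signalling proteins, 10 of 24 genes had a CD73+ peak and 9 a CD73- peak. A shared peak stood at Cd247, the zeta chain (125 in CD73+ and 102 in CD73- cells), and a single shared peak lay across the start site of Cd3g, within 10 kb of Cd3d as well (54.5 in CD73+ and 96.2 in CD73- cells). Grb2, an adaptor to the Ras pathway, had a shared peak of 242 in CD73+ and 73.5 in CD73- cells, and Csk, the kinase that restrains Lck, one of 114 in CD73+ and 82.0 in CD73- cells. Lck and Lat, which carry the first steps of the signal, had a CD73- peak alone, with scores of 53.7 and 97.3. The Lck peak lay 74 bp before a start site and the Lat peak 44 bp past one. Themis, Prkcq and Cblb had a CD73+ peak alone, at 92.1, 67.3 and 59.6. All 5 of these genes had a DN3 E2A peak nearby. The Lck and Lat peaks themselves overlapped a DN3 E2A peak (86.4 and 627), whereas the Themis and Prkcq peaks did not.

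Of 22 genes that respond to the receptor signal, 2 had a CD73+ peak and 2 a CD73- peak (9.09% each). Id3, the inhibitor that receptor signals induce through Egr factors, had a CD73+ peak of 71.8 inside the gene, 205 bp past its start (chr4:136143938-136144116), and no CD73- E2A peak. Id2, the related inhibitor, had a CD73+ peak of 65.4 892 bp past its far end (chr12:25092725-25092907). The CD73- list had a peak of 338 nearest to Id2 but 170646 bp away (chr12:25266738-25267195), and another of 343 whose nearest gene, at 221826 bp, was Myc (chr15:62212187-62212679). Nr4a1 and Nr4a3, orphan nuclear receptors that follow signal strength, had CD73- peaks alone, at 111 and 243. Neither list had a peak near Egr1, Egr2, Egr3, Cd69 or Cd5.

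The E proteins and their partners had 5 of 12 genes with a CD73+ peak and 1 with a CD73- peak. Tcf12, which encodes HEB, had peaks in both at different sites (64.7 in CD73+ and 57.8 in CD73- cells). Tcf4, another E protein gene, had 126 in CD73+ cells alone and Ldb1, a bridging cofactor, 74.9. Tcf3, the E2A gene itself, had none in either.

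Genes of the gamma-delta effector programme had a CD73+ peak in 9 of 24 and a CD73- peak in 7. Sox4, a factor of gamma-delta maturation, had a shared peak 5950 bp outside its span (273 in CD73+ and 475 in CD73- cells, chr13:28959649-28960190 in CD73+ cells). Il22, a cytokine of barrier defence, had a shared peak of 291 in CD73+ and 109 in CD73- cells, 6003 bp from its span. Ifng had a CD73+ peak alone, 62.9, at 141 bp before its start, Tbx21, the factor that drives Ifng, 54.1, Rora 60.8 and Blk, a Src family kinase, 62.2. Etv5 and Cd44 had CD73- peaks alone, 122 and 55.2. Sox13, Zbtb16, Cd27 and Nt5e, which encodes CD73, had no E2A peak in either.

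In the alpha-beta list 6 of 20 genes had a CD73+ and 7 a CD73- peak. Arpp21 had 2 shared peaks, at the start site shown above (107.7 in CD73+ and 303 in CD73- cells) and 9260 bp into the gene (105.3 in CD73+ and 181 in CD73- cells). Dntt, the enzyme that adds bases at receptor joints, had 63.1 in CD73+ and 91.4 in CD73- cells at sites that did not overlap, and Cd1d1 and Cd28 had CD73- peaks alone, 94.98 and 74.9. Ptcra, which encodes the pre-T alpha chain, Rag1 and Rag2 had none within 10 kb in either. DN3 E2A peaks of 112, 552 and 127 did lie near them. The CD73- alone peak of 597 nearest to Iftap (chr2:101551151-101551789) lies farther than that from Rag2 (chr2:101624712-101632528). Which gene it acts on was not tested.

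**Figure D4:**
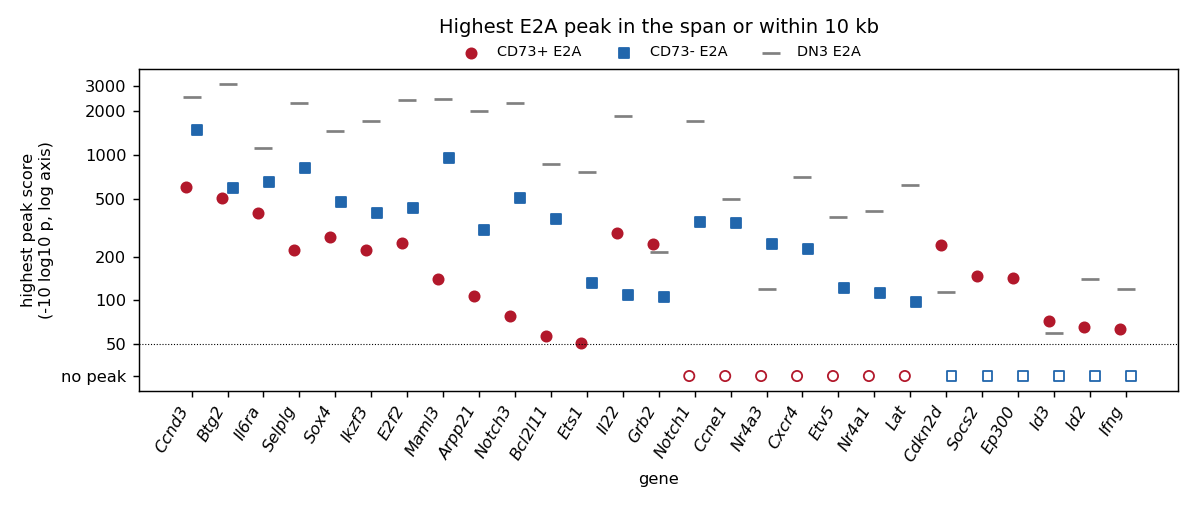
Highest E2A peak score (vertical, log axis) in the span or within 10 kb of 27 genes named in the text (horizontal axis), for CD73+ (red circles), CD73- (blue squares) and DN3 cells (grey bars, absent where there was none); open symbols mark no peak and the dotted line the lowest score. Scores of different lists are not on 1 scale. Notch1, Ccne1, Nr4a3, Cxcr4, Etv5, Nr4a1 and Lat have a CD73- but no CD73+ peak, and Cdkn2d, Socs2, Ep300, Id3, Id2 and Ifng a CD73+ but no CD73- peak.

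The Notch pathway, whose signal early thymocytes need to take the T cell fate, had 3 of 22 genes with a CD73+ peak and 5 with a CD73- peak. Notch1 had a CD73- peak of 347, 9547 bp outside its span (chr2:26513369-26513951), no CD73+ E2A peak, and a CD73+ HEB peak of 260 nearby. Notch3 had a shared peak of 78.2 in CD73+ and 505 in CD73- cells, 2584 bp past a start site (chr17:32164194-32164417 in CD73+ cells). Maml3, a coactivator of the Notch complex, had a shared peak of 141 in CD73+ and 957 in CD73- cells. Maml1 had 62.7 in CD73- cells alone, and Mfng, which modifies Notch sugars, 109 in CD73+ and 179.6 in CD73- cells without overlap.

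T lineage transcription factors had a peak in 9 of 24 genes in CD73+ cells and in 9 of 24 in CD73- cells. Ikzf3, a lymphoid zinc-finger factor, had a shared peak of 222 in CD73+ and 396 in CD73- cells, and Ets1 one of 50.6 in CD73+ and 131 in CD73- cells. Gata3 had a CD73+ peak of 129, 68 bp wide, upstream of its start, and a CD73- peak of 61.3 beyond its far end. Fli1 had a CD73+ peak alone (57.5), and Ikzf1 and Foxp1 CD73- peaks alone (78.0 and 58.9). Lef1 had 76.0 in CD73+ and 53.8 in CD73- cells at different sites, and Tcf7 and Bcl11b, which fix T cell identity, had none in either.

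Cell cycle genes between G1 and S phase had a CD73+ peak in 9 of 25 and a CD73- peak in 5. Besides Ccnd3, shared peaks stood at Btg2, an anti-proliferative factor (504 in CD73+ and 590.5 in CD73- cells), and at E2f2, a factor of S phase genes (248 in CD73+ and 432 in CD73- cells). Ccne1, which encodes cyclin E1, had a CD73- peak of 339 alone (chr7:38104154-38104551), and Cdk6 one of 58.6. Cdkn2d, the p19 inhibitor of Cdk4 and Cdk6, had a CD73+ peak of 241 alone, the same peak that was nearest to Ap1m2. Btg1 and Tob1, anti-proliferative factors related to Btg2, had 82.7 and 75.7 in CD73+ cells alone.

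Cytokine receptors and their JAK-STAT proteins had a CD73+ peak in 12 of 29 genes and a CD73- peak in 5. Il6ra, the IL6 receptor, had a shared peak of 398 in CD73+ and 657 in CD73- cells. The CD73+ alone genes were mostly at low scores, Il7r at 59.5, Stat3 and Stat5a at a common peak of 83.7, and Jak2 at 62.4, and Socs2, a feedback inhibitor, had a 69 bp peak of 147. Chemokine receptors and homing genes had a CD73+ peak in 2 of 21 and a CD73- peak in 5. Selplg, the ligand of P-selectin, had a shared peak of 221 in CD73+ and 811 in CD73- cells, and Cxcr4, the receptor that guides early thymocytes, a CD73- peak of 226 alone, inside the gene (chr1:128591088-128591569). Cxcr5 had a shared peak of 60.3 in CD73+ and 56.3 in CD73- cells, and Fut7, which makes selectin ligands, 60.9 in CD73- cells alone.

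Apoptosis genes had a CD73+ peak in 3 of 21 and a CD73- peak in 5. Bcl2l11, which encodes the death factor Bim, had a shared peak of 57.0 in CD73+ and 362 in CD73- cells inside the gene, and Bbc3, which encodes Puma, one of 61.4 in CD73+ and 144 in CD73- cells. Bcl2l1, Bak1 and Fas had CD73- peaks alone (51.8, 58.3 and 95.1), and Casp8 had 66.7 in CD73+ cells alone. Chromatin regulators had a CD73+ peak in 7 of 22 and a CD73- peak in 2. Ep300, a histone acetyltransferase, had 142 (70 bp wide), Crebbp 75.7 and Smarca4 69.2 in CD73+ cells alone, Hdac7 had a shared start-site peak of 68.5 in CD73+ and 114 in CD73- cells, and Tet2 had 56.6 in CD73- cells alone.

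**Figure D5:**
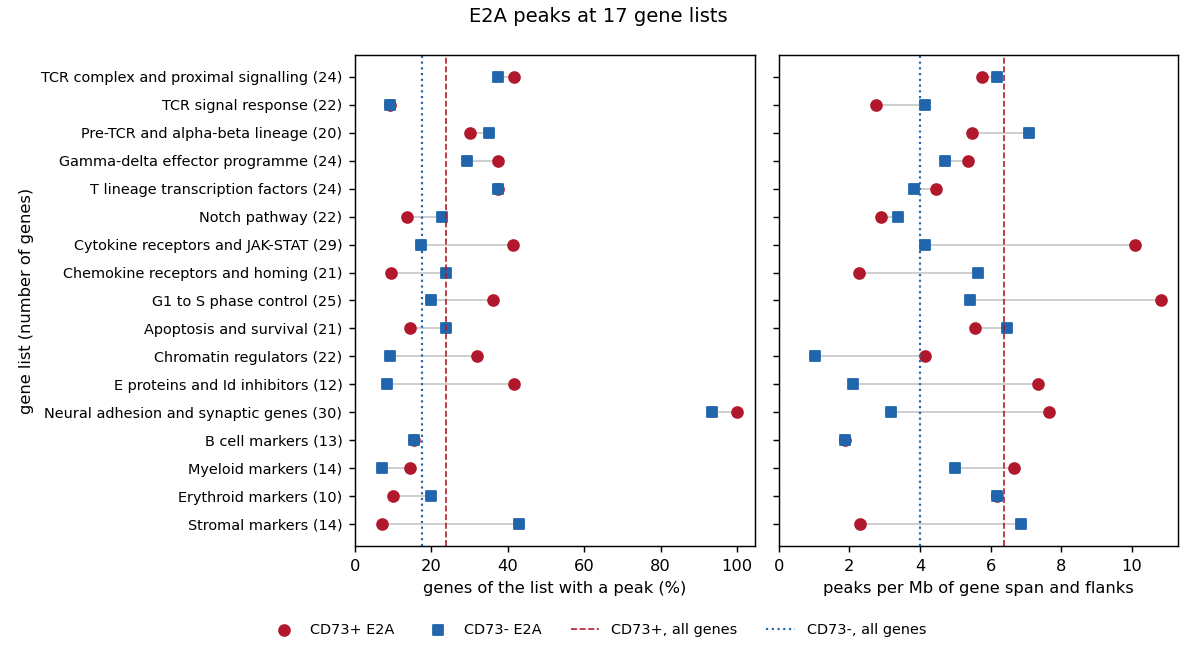
Share of genes with an E2A peak in the span or within 10 kb (left, %) and peaks per Mb of that sequence (right) for 17 gene lists, with the number of genes in brackets; CD73+ as red circles, CD73- as blue squares, and the values over all protein-coding genes as red dashed (23.7%, 6.36 per Mb) and blue dotted lines (17.6%, 3.99 per Mb). Cytokine receptor, G1 to S, chromatin and E protein genes have the CD73+ point well right of the CD73- point, and homing and stromal genes the reverse.

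The count of genes with a peak rises with gene length. Of 30 neural adhesion and synaptic genes, with a median span of 1221 kb, 30 had a CD73+ peak and 28 a CD73- peak. Per Mb of span and flanks they held 7.66 CD73+ and 3.18 CD73- peaks, beside 6.36 CD73+ and 3.99 CD73- peaks over all genes. Lrp1b, a lipoprotein receptor relative, held 24 CD73+ and 12 CD73- peaks, of which 3 pairs overlapped, the highest at 327 in CD73+ and 216 in CD73- cells. Markers of other cell types a culture could hold were also counted. B cell genes had a CD73+ peak in 2 of 13 and a CD73- peak in 2, myeloid genes a CD73+ peak in 2 of 14 and a CD73- peak in 1, erythroid genes a CD73+ peak in 1 of 10 and a CD73- peak in 2, and stromal genes a CD73+ peak in 1 of 14 and a CD73- peak in 6. The 6 stromal genes of CD73- cells scored 51.5 to 71.2 and include Thy1, a surface marker of T cells as well. Itgam, a myeloid integrin, had a shared peak of 141 in CD73+ and 366 in CD73- cells with a DN3 E2A peak of 1184. Peaks show binding and not expression, so these counts do not measure the purity of a sort.

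Some regions gave many or very high peaks. Of peaks scoring at least 1000, 24 of 24 in CD73+ and 25 of 25 in CD73- cells were shared and had a DN3 E2A and a DN3 HEB peak, and 11 of the CD73+ and 13 of the CD73- peaks lay over 50 kb from any protein-coding gene. Between 20 and 25 Mb of chromosome 8, where 39 of 81 protein-coding genes are alpha or beta defensins, there were 128 CD73+ and 295 CD73- peaks, of which 12 CD73+ and 58 CD73- peaks were strong. Between 88 and 89 Mb of chromosome 4, where 14 of 35 protein-coding genes carry only predicted names, there were 18 CD73+ and 40 CD73- peaks, of which 2 CD73+ and 15 CD73- peaks were strong. Near-identical copies may share reads there, so counts for single genes in these regions are uncertain. Without these regions and chromosome 2 from 98 to 99 Mb, 46 of 965 strong CD73+ alone peaks (4.77%) and 260 of 390 strong CD73- alone peaks (66.7%) overlapped a DN3 E2A peak. Other dense regions were not left out. Among them is chromosome 6 from 45 to 50 Mb, with 112 CD73+ peaks, 75 of them shared, and 85 CD73- peaks, 53 of them shared.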

How the data were processed

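Chromatin immunoprecipitation libraries for E2A and HEB and inputs were made from DN3, CD73- and CD73+ cells. The submitters' processing notes name genome build mm10, the aligner Bowtie, HOMER and MACS in version 1.4.2; duplicates were joined into a single file, per the labels' protocols. Each of the 6 files lists peaks. Their score, deposited by the authors as MACS gave it, is 10 times the negative log10 of a p-value; it is 50 or more, with ties at 3100. Read depth is not stated in the lists and is unknown here.

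Peaks on 21 chromosomes were used as deposited and written 1-based; 0 lists were left unmatched. A shared peak overlaps by at least 1 bp. Shares carry exact Clopper-Pearson 95% intervals. With 1 list per group no test against replicate error was possible, and no p-value is given.

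Genes are spans of 21887 protein-coding genes of a RefSeq table of GRCm38.p6, counted with 10 kb flanks; a nearest gene is the nearest span, ties to the shorter. Start sites come from 32851 promoter windows, so positions around a start refer to those. Overlap and gene assignment were tested on simulated data. E-boxes inside peaks were not searched, since no genome sequence was used.

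Of each set the 10 highest peaks within 50 kb of a gene are named, up to 4 shared and 3 genes of each population alone for each of 17 gene lists, and 24 regulators whatever their values, among them Il2ra, Tcf7 and Nt5e, which had no E2A peak in either population. Other named genes, among them Cblb, Tbx21, Jak2, Mfng, Dntt and Myc, the printed promoters and the 3 regions of many peaks were chosen after their values were seen. A few genes that these rules name are not reported here. The members and lists were chosen with earlier results of these data known. All 329 list symbols matched. Alternatives are named in the closing section. Software was Python 3.11.15 with pandas 2.3.3 and numpy 2.4.6, scipy 1.17.1 for intervals and matplotlib 3.10.9 for plots.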

Additional observations from a re-analysis of the deposited data

Results flagged for a closer look

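Outside chromosomes 1 to 19, X and Y, on sequences that no comparison used, the CD73+ E2A list holds 145 peaks and the CD73- E2A list also 145, a signal in data not otherwise described here.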

How the results depend on the processing

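No paired analysis was possible because each group has 1 list, from duplicates that the submitters joined before peaks were called. For the same reason no replicate was left out.

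Of 59 alternative values, 17 stayed within the counting interval of the value reported, or within 1.5 times of a count, and 42 did not. The share of CD73+ peaks that overlap a CD73- peak, 8.50%, was 27.7% with both lists at a score of at least 100, 11.9% with lists of equal length, 5.65% with an overlap of 50% of both peaks, 12.3% with a gap of up to 500 bp, 18.8% with the CD73+ list labelled HEB, and 7.38% without peaks under 100 bp wide. The share of CD73- peaks that overlap a CD73+ peak, 15.4%, was 39.9%, 11.6%, 10.5% and 22.3% under the first 4 of these and 13.2% without the narrow peaks. With lists of equal length the 2 shares thus nearly coincide, by construction. Midpoints within 200 bp, leaving out peaks over 3000 bp, all sequences, and leaving out chromosome 2 from 98 to 99 Mb kept both shares.

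Shares at a DN3 E2A peak are given as CD73+ shared, CD73+ alone, CD73- shared and CD73- alone, and stood at 44.4%, 2.18%, 43.4% and 10.3%. They were 71.3%, 4.74%, 84.7% and 66.8% at a score of at least 100, and 33.4%, 1.46%, 33.4% and 6.90% with midpoints within 200 bp. They were 49.5%, 4.41%, 49.5% and 10.7% with DN3 HEB in place of DN3 E2A, and 49.8%, 2.49%, 48.6% and 11.1% with lists of equal length. Added after the data were seen, a width of at least 100 bp with that score gave 77.5%, 8.57%, 87.5% and 69.4%, and leaving out 3 regions of many peaks at that score gave 71.4%, 4.77%, 85.3% and 66.7%. Leaving out peaks under 100 bp for the first shares was also added then. The CD73- alone share was above the CD73+ alone share in all of these settings.

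Genes with peaks in both populations, 2139, numbered 1385 within spans only, 3963 with the nearest gene of each peak and 285 at a score of at least 100. CD73+ alone genes, 3045, numbered 1774 within spans, 591 at that score and 2026 with lists of equal length. CD73- alone genes, 1713, numbered 1020 within spans and 384 at that score. With equal lengths they numbered 2159, so the order of CD73+ and CD73- alone genes turned round. Flanks of 5 kb kept all 3 counts within 1.5 times. The cause of each move was not tested beyond what the setting itself removes.

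Read depth is unknown here, and a site with no peak is one where none was called. The larger number of CD73+ peaks cannot be told apart from a difference in depth or input between libraries. Gene assignment by distance does not show which gene a site acts on.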

Other observations

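Peaks on a promoter window were few. In CD73+ cells they touched the windows of 21 protein-coding genes as shared peaks and 28 as alone peaks, with scores of 50.1 to 137. In CD73- cells they touched 24 genes as shared and 49 as alone peaks, with scores of 50.2 to 430.0. The genes named here were chosen after their values were seen. Sla2, an adaptor that dampens receptor signalling, had 2 shared promoter peaks in CD73+ cells, 57.3 and 56.98, and 1 of 378 in CD73- cells. Tnfsf14, which encodes the costimulatory ligand LIGHT, had a shared promoter peak of 90.1 in CD73+ and 222 in CD73- cells. Khk, a fructose kinase, had a CD73+ promoter peak alone, 63.7. Adgrg1, an adhesion receptor, had a CD73- promoter peak alone, 165, at a DN3 E2A peak of 419.

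Of alone peaks over 100 kb from any protein-coding gene, the 5 highest of CD73+ cells scored 291 down to 219.8 and were 72 to 251 bp wide, the first nearest to Bckdhb at 576055 bp. The 5 highest of CD73- cells scored 343 down to 212 and were 458 to 1596 bp wide. They were nearest to Myc, Id2, Lmo4, a LIM-only cofactor at 509984 bp, 9530057J20Rik in the defensin region, and Setd4.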
